A study of Homo sapiens with 8 samples.

Results

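This report describes 10 genes that set or oppose epithelial identity, as measured in Caco-2 cells exposed to the probiotic bacterium Lactobacillus plantarum MB452. The genes were chosen by symbol, through the platform annotation of the array, as 5 repressors of epithelial junction genes (SNAI1, SNAI2, ZEB1, ZEB2 and TWIST1) and 5 epithelial identity factors (GRHL2, ELF3, ESRP1, ESRP2 and OVOL1). All 10 were on the array, on 17 of its 44290 features, and were fitted among 17969 genes and 42142 features. Caco-2, an established cell line from a human colorectal adenocarcinoma, grows into a monolayer sealed by tight junctions. Cells of both groups were grown for 18 days to differentiate and were then given M199 medium with non-essential amino acids for 10 h. The medium of the MB452 group held L. plantarum MB452 (optical density 0.9) and that of the control group held no bacteria. RNA from 3 wells was combined into each pool, giving 2 MB452 pools and 2 control pools, lettered A and B in each group. Each pool was labelled with Cy5 and set on its own slide against a Cy3-labelled reference made from all wells, and each of the 4 slides was scanned at a high and at a low voltage. Nothing in the sources says that the wells came from separate experiments, so a p-value here measures only the spread between these pools, which may be technical.

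Epithelial cells hold their junctions and polarity through genes that Snail, ZEB and Twist proteins can shut down. These repressors bind short DNA elements called E-boxes in promoters such as that of CDH1, the gene for E-cadherin, and they are best known from epithelial-mesenchymal transition, in which cells lose junctions and gain mobility. Acting the other way, GRHL2 and ELF3 activate epithelial genes, OVOL1 represses ZEB1, and ESRP1 and ESRP2 impose epithelial splicing. ZEB factors and the epithelial factors repress each other in many tissues.

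The values are log2 ratios of a pool to the reference, centred on the median of each column, so a ratio above 0 places the pool above the reference relative to the median feature. Such ratios rank pools within a gene and give no level that could be compared between genes. A difference is the MB452 mean minus the control mean, and was called where it passed the study's own threshold, a fold change over 1.2 (0.263 on the log2 scale) with an unadjusted p under 0.05 from the moderated test in limma. In the whole table this threshold called 343 of 17969 genes (1.91%), and no gene or feature reached a Benjamini-Hochberg adjusted p under 0.05, while 1166 genes and 2317 features had an unadjusted p under 0.05. Across features, which are no independent replicates, r was 0.669 between the 2 MB452 pools and 0.403 between the 2 control pools. Control pool B correlated with the other 3 pools at 0.381 to 0.453. The ratios hold no brightness, but in each column many features share 1 repeated value, which was taken here to mark saturation of both dyes, a reading that no source states. Of 11 enterocyte and epithelial markers, 5 (VIL1, FABP1, EPCAM, KRT8 and KRT18) had a feature at this value in the high scan of all 4 slides, against 0 of 8 fibroblast markers and 0 of 7 leukocyte and endothelial markers. None of the 17 member features was at the repeated value or missing in any column.

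Of the 17 member features, 3 were past the threshold and all 3 were higher with MB452: SNAI1, ELF3 and 1 of the 2 features of OVOL1. Among all features 1.30% were called higher. With features averaged by gene, SNAI1 and ELF3 were past the threshold and 0 members were called lower, while 1.04% of all genes were called higher. The adjusted p of the 10 genes lay between 0.637 and 0.99, and 3 of the 10 had an unadjusted p under 0.05. The median difference of the 10 was 0.033, against -0.0093 over all genes. The MB452 pools lay beyond both control pools in 6 of the 10 genes, 4 higher and 2 lower, and in 4 of the 17 features, all higher. Such separation was present in 37.1% of all genes and 35.6% of all features.

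**Figure D1:**
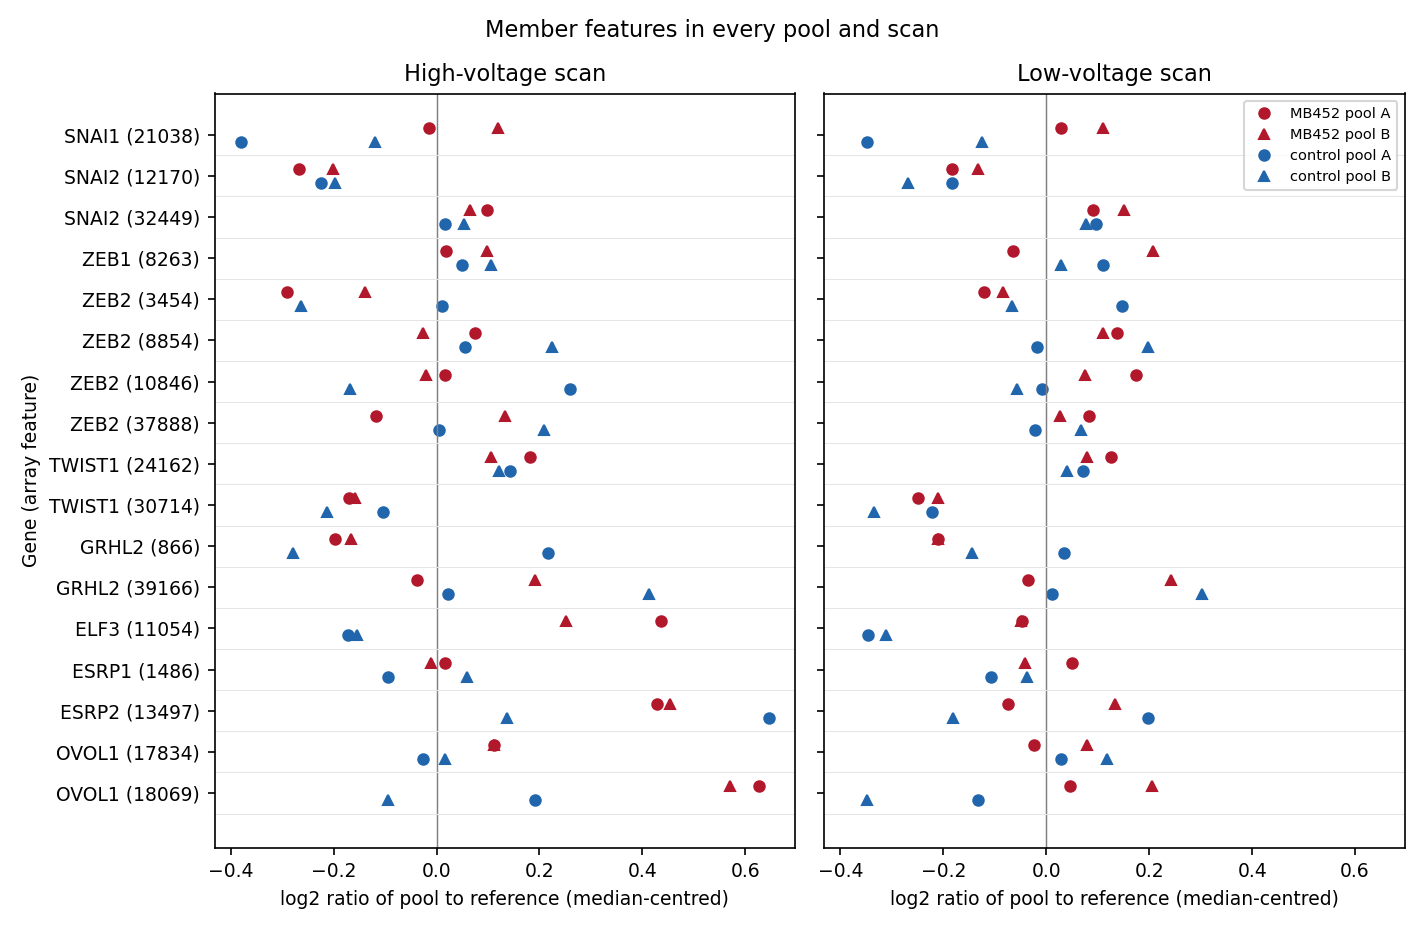
Log2 ratio of each pool to the reference (horizontal axis) for the 17 features of the 10 genes (rows, with the feature's row number in the array table), in the high scan on the left and the low scan on the right. Red points are MB452 pools and blue points control pools, with circles for pool A and triangles for pool B. Red lies clear of blue in both scans for SNAI1, ELF3 and OVOL1 feature 18069, and the colours mix in most other rows.

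SNAI1, which encodes Snail, the short-lived zinc finger repressor of CDH1 and OCLN, had 1 feature. In the high scan its log2 ratio was -0.015 and 0.12 in MB452 pools A and B, against -0.38 and -0.12 in control pools A and B. In the low scan it was 0.028 and 0.11 in MB452 pools A and B, against -0.35 and -0.12 in control pools A and B. Both MB452 pools stood above both control pools in each scan, and control pool A was the lowest by a wide margin. The mean was 0.061 ± 0.077 in MB452 pools and -0.24 ± 0.17 in control pools (SD, n = 2 each), a difference of 0.30 with a 95% interval of 0.044 to 0.56 (limma, unadjusted p = 0.0298, adjusted p = 0.871 over all features), or 1.235-fold. The scans gave nearly the same difference, 0.302 at the high voltage and 0.306 at the low. The call depended on the pools, since it held in 1 of the 4 fits that left a pool out: the difference was 0.36 without MB452 pool A, 0.25 when MB452 pool B was dropped and 0.18 when control pool A was dropped, none past the threshold (unadjusted p = 0.0636, 0.149 and 0.0744 in limma), and 0.43 without control pool B (unadjusted p = 0.00174, limma). In RNA of whole wells, fewer cells that express a gene and less RNA in each cell cannot be told apart.

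SNAI2, which encodes Slug, the paralogue of Snail, had features that differed little between the groups. Feature 12170 had slide means of -0.23 and -0.17 in MB452 pools A and B, against -0.20 and -0.23 in control pools A and B. Feature 32449 had slide means of 0.094 and 0.108 in MB452 pools A and B, against 0.057 and 0.065 in control pools A and B. The pools overlapped in feature 12170 and were separate by a small step in feature 32449, and each feature kept its own offset from the reference in all 4 pools. The gene differed by 0.031 (95% interval -0.11 to 0.17, unadjusted p = 0.594, limma), which takes in no change and ends below the fold minimum.

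ZEB1 and ZEB2 encode paralogous repressors that bind paired E-boxes and recruit CtBP corepressors. The slide means of ZEB1 were -0.022 and 0.15 in MB452 pools A and B, against 0.08 and 0.067 in control pools A and B. The MB452 pools lay on either side of the control pools, and the difference was -0.0079 (95% interval -0.20 to 0.19, unadjusted p = 0.922, limma). ZEB2 had 4 features, of which 3454 and 37888 were designed on the same transcript accession. Their differences were -0.12 for feature 3454, -0.041 for 8854, 0.055 for 10846 and -0.033 for 37888, and the groups overlapped in all 4. Averaged over the features, ZEB2 was -0.0052 and 0.0095 in MB452 pools A and B, against 0.054 and 0.018 in control pools A and B. These MB452 pools were just below the control pools, and the difference of -0.034 (95% interval -0.17 to 0.11, unadjusted p = 0.564, limma) was well within the spread of single features.

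TWIST1, a basic helix-loop-helix repressor of CDH1, had 2 features that name the same transcript. Feature 24162 lay at 0.15 and 0.092 in MB452 pools A and B, against 0.11 and 0.082 in control pools A and B. Feature 30714 lay at -0.21 and -0.18 in MB452 pools A and B, against -0.16 and -0.27 in control pools A and B. The features sat on opposite sides of the reference in every pool, and in both of them the groups overlapped. The gene differed by 0.025 (95% interval -0.12 to 0.17, unadjusted p = 0.681, limma). Thus SNAI1 alone of the 5 repressors was past the threshold, although its difference from the other repressors was not itself tested.

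**Figure D2:**
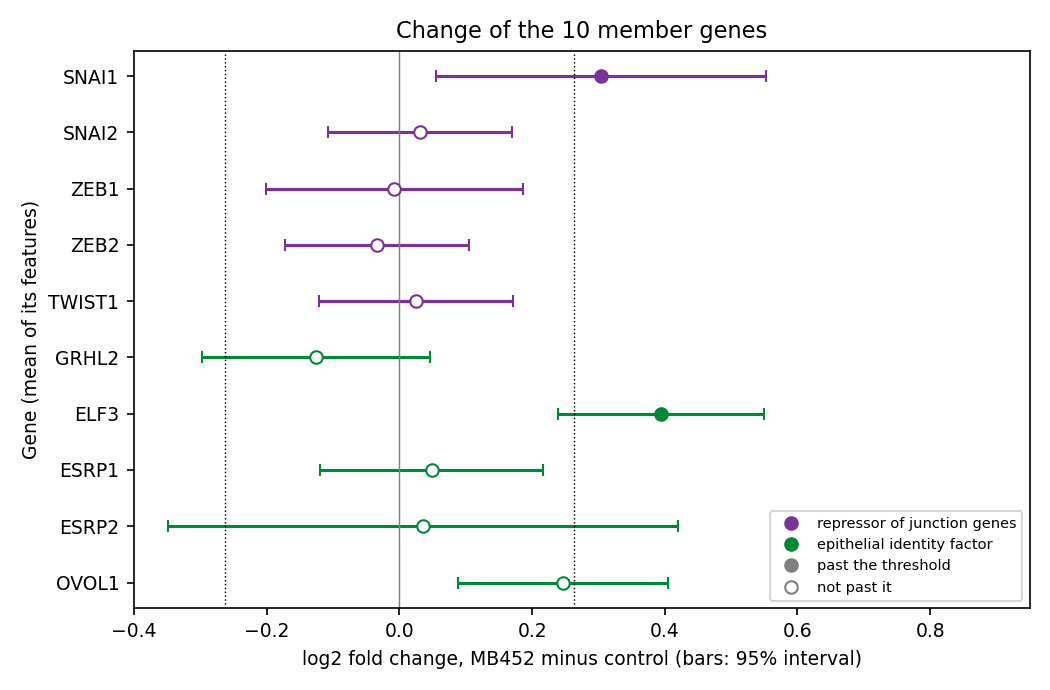
Log2 fold change, MB452 minus control, of the 10 genes (horizontal axis; each gene the mean of its features), with 95% intervals from the moderated fit, 2 pools in each group. Filled points passed the study's threshold, and dotted lines mark the fold minimum at 0.263 in either direction. SNAI1 at 0.30 and ELF3 at 0.39 are filled, OVOL1 at 0.25 stops short of the line, and GRHL2 at -0.12 is the lowest.

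GRHL2, a grainyhead-like activator of CDH1 and claudin genes, was the identity factor with the lowest difference. Feature 866 had slide means of -0.20 and -0.19 in MB452 pools A and B, against 0.13 and -0.21 in control pools A and B. Feature 39166 had slide means of -0.037 and 0.22 in MB452 pools A and B, against 0.017 and 0.36 in control pools A and B. In feature 866 control pool A stood apart above the other 3 pools, whereas in feature 39166 both B pools were higher than both A pools. Averaging the features gave -0.12 and 0.015 in MB452 pools A and B, against 0.071 and 0.073 in control pools A and B. The difference of the gene was -0.12 (95% interval -0.30 to 0.047, unadjusted p = 0.122, limma) and did not pass. The difference of feature 866 was -0.32 without control pool B, where a single control pool stood for the group.

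ELF3 had the largest difference of the 10 genes. It encodes an ETS factor of differentiated epithelia, which in the mouse intestine is needed for the expression of the type II TGF-beta receptor. Its promoter is shown because it is the only promoter of a called member in the RefSeq table used here (build GRCh38.p14). The 250 bases before the start, chr1:202010337-202010586 on the plus strand, hold a single E-box of the type bound by Snail, ZEB and Twist factors (CACCTG, or CAGGTG on the other strand), in capitals, which begins 120 bases before the start.
ELF3: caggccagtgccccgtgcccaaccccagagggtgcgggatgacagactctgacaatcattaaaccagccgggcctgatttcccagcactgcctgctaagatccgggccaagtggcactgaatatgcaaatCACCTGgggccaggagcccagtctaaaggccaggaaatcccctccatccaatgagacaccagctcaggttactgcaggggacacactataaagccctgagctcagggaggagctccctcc
In the high scan the log2 ratio of ELF3 was 0.44 and 0.25 in MB452 pools A and B, against -0.17 and -0.16 in control pools A and B. In the low scan it was -0.046 and -0.049 in MB452 pools A and B, against -0.35 and -0.31 in control pools A and B. Each scan placed both MB452 pools above both control pools, and the control pools nearly coincided. The mean over scans was 0.15 ± 0.066 in MB452 pools and -0.25 ± 0.018 in control pools (SD, n = 2 each), a difference of 0.39 with a 95% interval of 0.23 to 0.56 (limma, unadjusted p = 0.00173, adjusted p = 0.853 over all features), or 1.31-fold. The call held in all 4 fits that left out a pool, with differences of 0.35 to 0.44. The scans disagreed on size, with a difference of 0.51 at the high voltage and 0.28 at the low, both past the threshold. Averaged over slides, the high scan of ELF3 read 0.28 above its low scan, and 4.03% of all features had a larger gap between scans, against a median gap of 0.031. With the 8 scans as separate arrays and the slide as a random block, ELF3 was not past the threshold (SE 0.18, unadjusted p = 0.0532, limma). That fit had no term for the scan, so the gap between scans entered its residual spread.

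ESRP1 and ESRP2 encode RNA-binding proteins that keep epithelial splice forms of genes such as FGFR2 and CD44. ESRP1 had slide means of 0.034 and -0.026 in MB452 pools A and B, against -0.10 and 0.011 in control pools A and B. ESRP2 had slide means of 0.18 and 0.29 in MB452 pools A and B, against 0.42 and -0.023 in control pools A and B. Both genes overlapped between groups, and the 2 control pools of ESRP2 lay further apart than the control pools of any other member gene. The difference was 0.049 for ESRP1 (95% interval -0.12 to 0.22) and 0.036 for ESRP2 (95% interval -0.35 to 0.42), with unadjusted p of 0.494 and 0.822 in limma. The interval of ESRP2 goes past the fold minimum on both sides, so a change of the size called for SNAI1 was not detectable in that gene with these pools. ESRP2 also read 0.40 higher in the high scan than in the low scan, a gap that 0.626% of all features exceeded.

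OVOL1, a zinc finger repressor of ZEB1 that is active in differentiating epithelia, had 2 features for the same transcript accession, and they did not give the same value. In the high scan feature 18069 had ratios of 0.63 and 0.57 in MB452 pools A and B, against 0.19 and -0.094 in control pools A and B. In the low scan it had ratios of 0.046 and 0.21 in MB452 pools A and B, against -0.13 and -0.35 in control pools A and B. Both MB452 pools exceeded both control pools in each scan, and the difference of 0.46 (SE 0.099, 95% interval 0.20 to 0.71) was the largest of the 17 features. It passed the threshold in limma (unadjusted p = 0.00547, adjusted p = 0.853 over all features), as 1.37-fold. The call held in all 4 fits without a pool, with differences of 0.33 to 0.58, and was lost with the slide as a random block (unadjusted p = 0.0816, limma). This feature read 0.38 higher in the high scan than in the low, a gap exceeded by 0.956% of all features. The fit with the slide as a random block had no term for this gap.

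Feature 17834 of OVOL1 had high-scan ratios of 0.11 and 0.11 in MB452 pools A and B, against -0.027 and 0.016 in control pools A and B. Its low-scan ratios were -0.023 and 0.078 in MB452 pools A and B, against 0.029 and 0.12 in control pools A and B. The groups were separate in the high scan and overlapped in the low scan, where the difference turned to -0.046, and over both scans it was 0.036 (95% interval -0.13 to 0.20, unadjusted p = 0.599, limma). Feature 18069 minus feature 17834 was 0.291 and 0.292 in MB452 pools A and B, against 0.028 and -0.29 in control pools A and B. Feature 18069 was thus above feature 17834 by nearly the same amount in both MB452 pools, whereas in the control pools it was about level with it in A and below it in B. The signed difference between the features was 0.42 higher in MB452 pools on average, and this was not tested. The mean of both features differed by 0.25 (SE 0.063, unadjusted p = 0.0101, limma), under the fold minimum, and was past the threshold in the high scan alone (0.33), with MB452 pool A left out (0.27), with control pool A left out (0.29) and where the more variable feature stood for the gene (0.46).

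**Figure D3:**
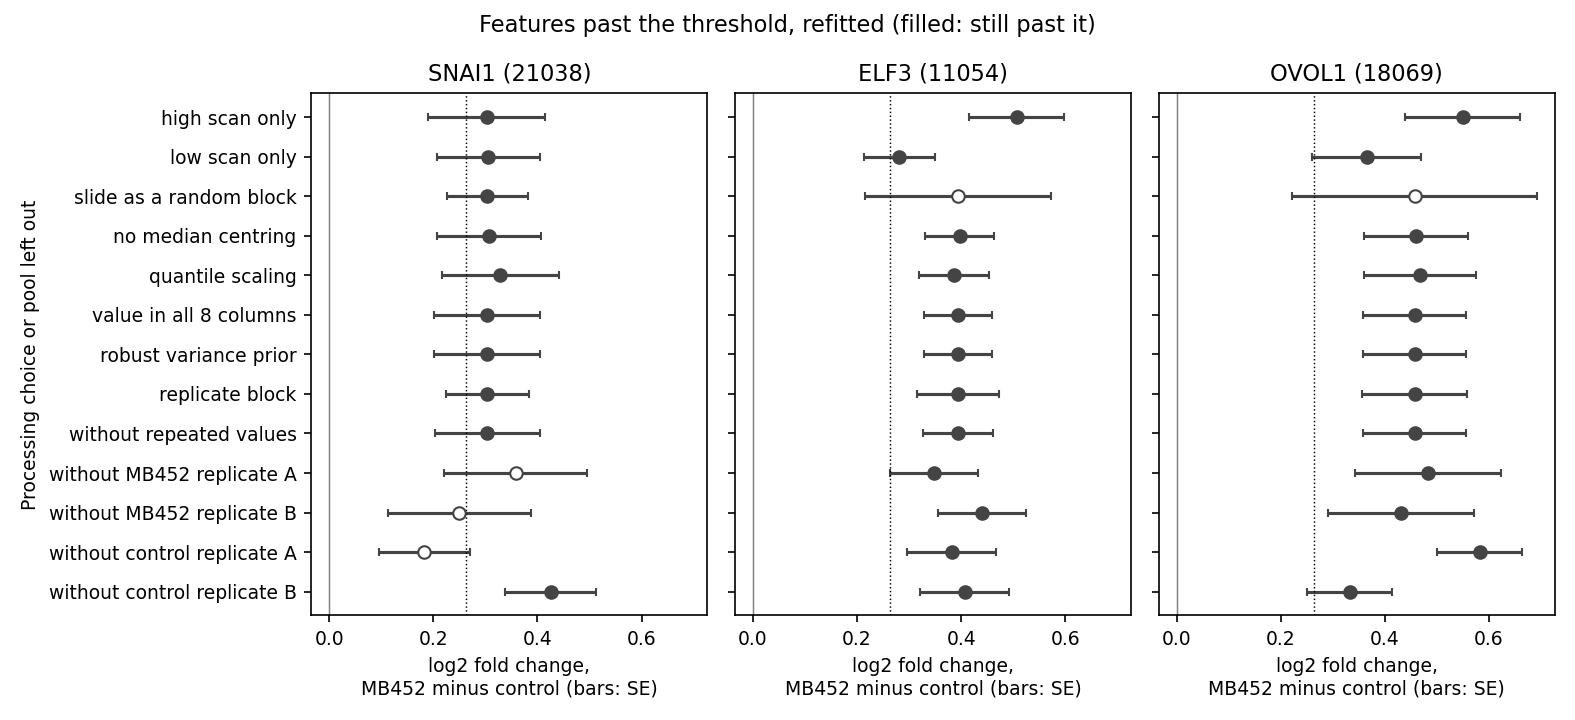
Log2 fold change, MB452 minus control, of the 3 member features past the threshold (panels) under each processing choice or with a pool left out (rows), with standard errors as bars, the dotted line at the fold minimum of 0.263 and filled points past the threshold. SNAI1 loses its filled point in 3 of the 4 rows without a pool, and ELF3 and OVOL1 lose theirs with the slide as a random block.

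The genes whose pattern over the 4 pools was nearest to a called member were found by root mean square difference of the pool values, across all 17969 genes. For SNAI1 they were CYP51A1, a sterol demethylase of cholesterol synthesis (0.052), NOSTRIN, which controls the traffic of endothelial nitric oxide synthase (0.054), and XBP1, a transcription factor of the unfolded protein response (0.057). For ELF3 they were DNAJB11, a cochaperone of the endoplasmic reticulum (0.056), PLAU, the urokinase-type plasminogen activator (0.057), and YY1AP1, a partner of the transcription factor YY1 (0.065). Likeness over 4 values is a weak criterion and many genes come close to it by its nature.

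The genes on which the repressors are known to act were then listed. Of 18 epithelial genes repressed by Snail or ZEB factors, 14 gave a measurement, 1 was past the threshold and higher, and 0 were lower. The gene was OCLN, which encodes occludin, the tight junction membrane protein. Its slide means were 0.26 and 0.26 in MB452 pools A and B, against -0.43 and -0.085 in control pools A and B. Both MB452 pools were above both control pools, and control pool A was the lowest, as for SNAI1. OCLN differed by 0.52 (SE 0.12, unadjusted p = 0.00677, adjusted p = 0.637, limma), and both of its features were past the threshold, at 0.46 and 0.57. CLDN7, a claudin, lay at -0.099 and -0.12 in MB452 pools A and B, against 0.12 and 0.05 in control pools A and B. Its MB452 pools were below both control pools, and the difference of -0.19 (SE 0.058, unadjusted p = 0.0196, adjusted p = 0.697, limma) was under the fold minimum. LLGL2, chosen after its values were seen, differed by 0.19 (SE 0.065, unadjusted p = 0.0296, limma), also under the fold minimum. The difference was 0.064 for CLDN1 and 0.0049 for CLDN4, neither past the threshold. CDH1, the best known target of Snail, had 1 feature, and it was at the repeated value, taken as saturation, in all 8 columns, so its difference was not used as a measurement. The feature of EPCAM was at that value in the same way. DSP, KRT8 and KRT18 counted as measured, although each kept a feature at this value in the high scan of all 4 slides. Feature 40500 of KRT18 was at it in all 8 columns. The median of the 14 measured genes was 0.0077, against -0.0093 over all genes, of which 1.04% were called higher.

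Promoters were searched for the E-box CACCTG on both strands, in windows of 250 bases before to 50 after each start. An E-box was present in 8 of 12 genes of this list that had a window, or 66.7%, and in 24.1% of all 27305 genes with a window. The list was chosen as targets of factors that bind this element, so the higher share is no independent finding. The promoters of OCLN and CLDN7 are shown because the array measured these targets on opposite sides of their control pools and both have the element. For each, the 250 bases before 1 start with a match are given, at chr5:69492297-69492546 on the plus strand for OCLN and at chr17:7262479-7262728 on the minus strand for CLDN7, with E-boxes in capitals.
OCLN: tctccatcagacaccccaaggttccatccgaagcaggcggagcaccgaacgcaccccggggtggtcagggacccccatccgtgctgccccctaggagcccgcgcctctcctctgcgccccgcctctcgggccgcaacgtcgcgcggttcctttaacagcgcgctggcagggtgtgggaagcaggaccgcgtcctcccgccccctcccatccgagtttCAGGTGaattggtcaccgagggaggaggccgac
CLDN7: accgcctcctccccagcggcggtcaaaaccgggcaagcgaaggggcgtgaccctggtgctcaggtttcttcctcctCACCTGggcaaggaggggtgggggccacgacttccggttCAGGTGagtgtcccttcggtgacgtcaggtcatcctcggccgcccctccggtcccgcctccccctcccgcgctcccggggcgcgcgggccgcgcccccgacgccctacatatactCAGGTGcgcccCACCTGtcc
OCLN has 1 element, 33 bases before this start, and CLDN7 has 4, of which the nearest begins 9 bases before the start and the farthest 174. Both genes have 2 starts in the table. The window of the other OCLN start holds 2 elements, 1 of them before the start, and that of the other CLDN7 start holds 0. The grainyhead-like element AACCGGTT was in 0 of the 4 windows held for GRHL2 targets, from 3 genes, and in 0.134% of all windows. With an element this rare, so few windows could not show a difference. A match of letters is no evidence of binding.

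Mesenchymal genes, which are induced when epithelial cells go through the transition, were measured for 21 of 22, with 0 past the threshold in either direction and a median difference of -0.0065. CDH2, the gene for N-cadherin, lay at 0.33 and -0.05 in MB452 pools A and B, against -0.027 and -0.11 in control pools A and B. VIM, the gene for vimentin, lay at -0.076 and -0.055 in MB452 pools A and B, against -0.044 and 0.30 in control pools A and B. In each of the 2 genes a lone pool stood out, MB452 pool A for CDH2 and control pool B for VIM. The difference was 0.21 for CDH2, -0.20 for VIM and -0.015 for FN1, the gene for fibronectin, none past the threshold. The difference of CDH2 was 0.40 without MB452 pool B, and that of VIM was -0.37 without control pool A. In each of these fits a single pool stood for its group. Of 8 other transcription factors of the transition 0 passed, and of 12 other epithelial and intestinal factors 0 passed. Among all genes 1.91% were called in either direction, so 0 calls in lists of 8 to 21 genes say little. In both lists of factors the number of calls changed when a control pool was left out. The list of epithelial and intestinal factors gave 1 call in the low scan alone, with quantile scaling, without repeated values or with no fold minimum. In it KLF5, chosen after its values were seen, differed by 0.24 (unadjusted p = 0.0373, limma), under the fold minimum. Its feature 40755 was at the repeated value in the high scan of all 4 slides and differed by 0.37 in the low scan. CDX2, the homeobox factor of intestinal identity, had a difference of -0.24 and slide means of -0.12 and -0.016 in MB452 pools A and B, against -0.091 and 0.44 in control pools A and B. Control pool B stood apart again, and the difference of CDX2 was past the threshold at -0.51 without control pool A and was 0.021 without control pool B. HNF4A was not analysed here.

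Proteins that work with Snail and ZEB factors or set their turnover gave 2 calls among 19 genes measured, both higher. AJUBA, a LIM protein that serves as a Snail corepressor, had slide means of 0.14 and 0.41 in MB452 pools A and B, against 0.0066 and -0.34 in control pools A and B. FBXO11, which marks Snail for degradation, had slide means of 0.17 and 0.29 in MB452 pools A and B, against -0.0018 and -0.16 in control pools A and B. In both genes the MB452 pools were above the control pools, with differences of 0.45 (SE 0.15, unadjusted p = 0.0269) for AJUBA and 0.31 (SE 0.081, unadjusted p = 0.0119) for FBXO11 in limma. Neither call held without MB452 pool B (0.31 for AJUBA and 0.24 for FBXO11) or without control pool B (0.27 for AJUBA and 0.23 for FBXO11). AJUBA also lost its call when each slide entered as a random block (unadjusted p = 0.0621, limma), and FBXO11 in the low scan alone (0.22, unadjusted p = 0.0705, limma). CTBP2, a CtBP gene chosen after its values were seen, differed by 0.24 (unadjusted p = 0.0162, limma), under the fold minimum. Of its 2 features, 28623 was past the threshold at 0.33 and 13305, at 0.14, was not. The list had a median of 0.047, with 15 of 19 genes above 0, against a median of -0.0093 over all genes. The groups were separate in 8 of the 19, against 37.1% of all genes, and 1.04% of all genes were called higher.

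SMAD3, the signal carrier of the TGF-beta pathway, which can induce SNAI1, was the call among 19 genes of that pathway (all genes: 1.04% called higher). Its slide means were 0.16 and 0.29 in MB452 pools A and B, against -0.092 and -0.20 in control pools A and B. The groups were separate, and the difference was 0.37 (SE 0.076, unadjusted p = 0.00405, adjusted p = 0.637, limma), with both features past the threshold at 0.44 and 0.30. TGFBR2, the type II receptor named above with ELF3, was chosen for mention after its values were seen. Its difference of 0.23 was under the fold minimum, with 0.35 in feature 36815, which was past the threshold, and 0.10 in feature 35566, which was not. The genes spliced by ESRP proteins (7), the splicing factors beside or against them (5) and the measured GRHL2 targets (7) gave 0 calls, with medians of -0.0013, 0.12 and 0.0049. Among all genes 1.91% were called in either direction. ERBB3, a GRHL2 target chosen after its values were seen, had 1 of 3 features past the threshold, 32877, at 0.36. Its features 3014 and 28002 lay at -0.19 and 0.071, and the gene differed by 0.080. The only feature of SPINT2, a GRHL2 target, was at the repeated value in the high scan of all 4 slides. MBNL1, a splicing factor also chosen after its values were seen, had 1 of 4 features past the threshold, 34295, at 0.19 and 0.18 in MB452 pools A and B, against -0.23 and -0.25 in control pools A and B. The gene as a whole differed by 0.19, under the fold minimum.

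Over the 9 related lists together, 4 of 111 measured genes were past the threshold, all higher, or 3.6%, with a median of 0.016. Among all genes 1.04% were called higher and 1.91% in either direction, with a median of -0.0093. The count moved with the pools and was highest without control pool A, where calls over all genes rose as well.

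**Figure D4:**
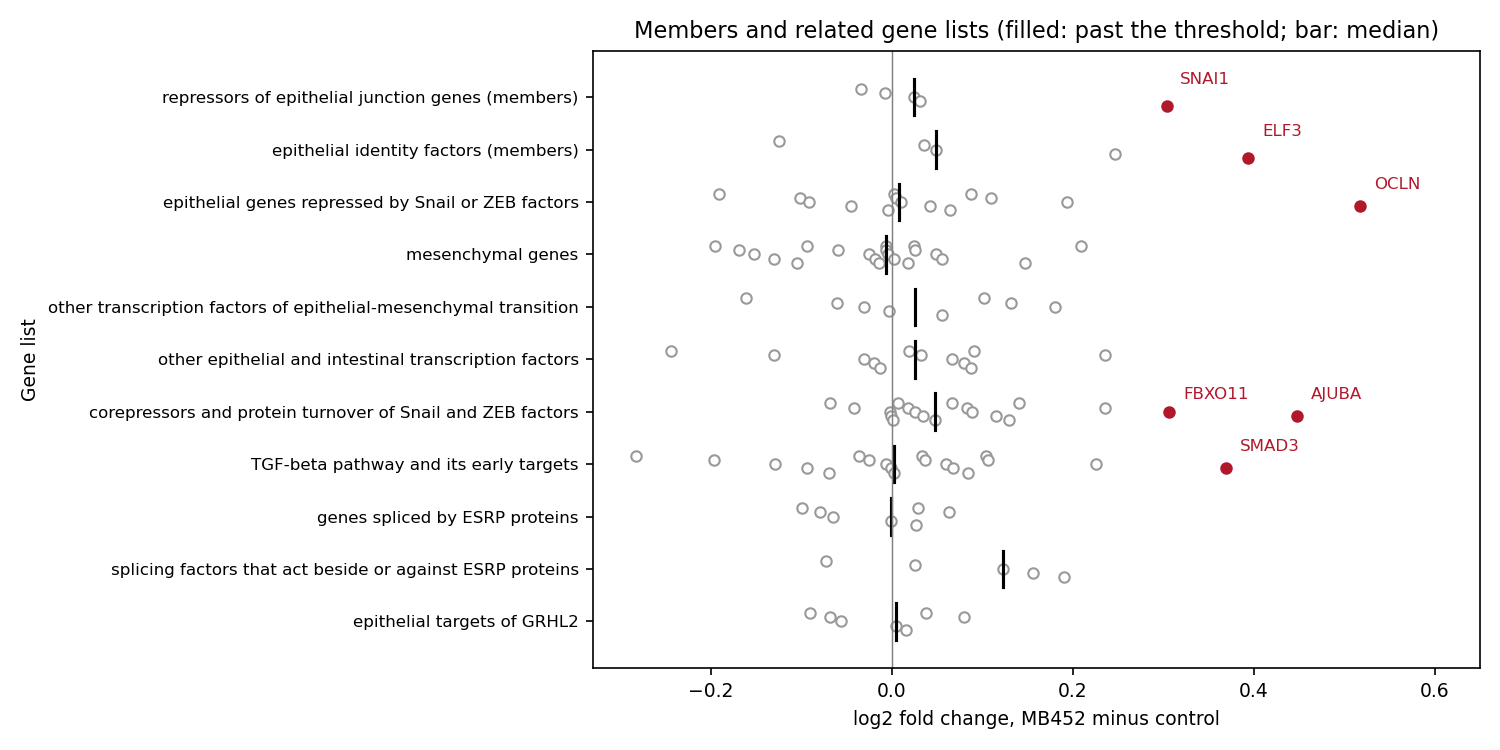
Log2 fold change, MB452 minus control (horizontal axis), of the measured genes in the member lists and in 9 related lists (rows), with 2 pools in each group. Filled red points passed the study's threshold and are named, open points did not, and black bars are list medians, which lie between -0.0065 and 0.12. The 6 filled points all lie to the right of 0.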

How the data were processed

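RNA of 2 MB452 pools and 2 control pools was measured on 4 two-colour slides. The authors quantified the scans in GenePix, removed poor spots by hand, subtracted no background, loess normalized within arrays in limma (no version stated) and deposited log2 ratios of Cy5 (pool) over Cy3 (reference) in 1 column for each scan. No source states the logarithm's base, which was taken as 2. The labels' short name for the reference differs between groups, whereas the methods give 1 reference from all wells. Of the 8 columns, 0 were left out. Intensities were not used, so signal over background is unknown, and the 2 pools in each group limit the precision.

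Columns were centred on their median and the scans of a slide averaged. The 42142 features present on all 4 slides were fitted in limma 3.58.1 under R 4.3.3 (lmFit, eBayes, MB452 minus control), with Benjamini-Hochberg adjustment over all features, and again after features were averaged by gene (17969 genes). Gene names came from the platform annotation, 29033 features having 1 symbol, 97 several and 15160 none, with 28992 matched to RefSeq symbols. In each column 1 value is shared by many features (1201 to 1534 in a high scan, 310 to 397 in a low scan), and was taken as saturation in both channels, which no source states. Promoters are RefSeq windows of GRCh38.p14, held for 3 of the 10 members (ELF3, ZEB1 and ZEB2). The fits were tested on simulated data with independent errors, and the pass mark was set only at changes larger than those called here. Same-lettered pools were not paired (correlation of their deviations -0.016).

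The named genes are the 10 members, up to 4 called genes of each related list with the largest change, 10 targets or counterparts (OCLN, CDH1, CLDN1, CLDN4, CLDN7, CDH2, VIM, FN1, HNF4A and CDX2) and the 3 genes nearest to each called member. The members, the lists and the tests were chosen with earlier results of these data known, so none of them is independent support. Alternatives covered the scans, centring, scaling, missing and repeated values, the variance prior, the call rule, the choice of feature, the replicate letter and each pool left out.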

Additional observations from a re-analysis of the deposited data

How the results depend on the processing

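The 3 member features past the threshold became 1 when each slide entered as a random block, and 0 with a minimum fold of 1.5 or with an adjusted p in place of the study's rule. Leaving out a pool gave 2 to 4. The 2 member genes became 1 with the slide as a random block, 0 under either stricter rule and 1 to 2 without a pool, the lower count without MB452 pool B. The 4 related genes became 8 where the most variable feature stood for a gene, 10 with no fold minimum, 0 under either stricter rule, and 4 to 15 without a pool, the highest without control pool A. Under the replicate block the counts were 3 features, 2 member genes and 4 related genes, and the correlation of same-lettered pools did not pair them. The fit with the slide as a random block had no term for the scan, and the cause of these shifts was not tested. No member was past a 1.5-fold change, and with 2 pools in each group changes of the size of the fold minimum could be missed.

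Differences near 0 changed sign. In the low scan they were 0.0025 for ZEB1, 0.020 for ZEB2, 0.034 and 0.032 for ZEB2 features 8854 and 37888, and -0.046 for OVOL1 feature 17834. In the high scan they were -0.024 for SNAI2 feature 12170, -0.048 for ZEB2 feature 10846 and -0.0059 for TWIST1 feature 30714. Quantile scaling gave 0.011 for ZEB1 and 0.0069 for FN1.

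Without a pool, differences ran from -0.096 to 0.080 for ZEB1, -0.0086 to 0.059 for TWIST1, -0.0073 to 0.10 for ESRP1, -0.19 to 0.26 for ESRP2, -0.11 to 0.12 for CLDN4, -0.099 to 0.070 for FN1 and -0.51 to 0.021 for CDX2. By feature they ran from -0.0072 to 0.051 for SNAI2 12170, -0.24 to 0.0061 for ZEB2 3454, -0.14 to 0.055 for ZEB2 8854, -0.064 to 0.17 for ZEB2 10846, -0.11 to 0.040 for ZEB2 37888, -0.0018 to 0.059 for TWIST1 24162, -0.034 to 0.076 for TWIST1 30714, -0.32 to 0.016 for GRHL2 866 and -0.27 to 0.074 for GRHL2 39166. None of these sign changes belonged to a gene or feature past the threshold in the fit of all 4 pools. SNAI1, ELF3, OVOL1 feature 18069, OCLN, AJUBA, FBXO11 and SMAD3 were higher with MB452 under every alternative. In each of them both MB452 pools lay above both control pools, so leaving out a pool or changing the call rule could not reverse the sign.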
